A study of Mus musculus with 4 samples.

Results

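The genes examined were 38 enzymes, regulators, transporters and receptors of ceramide, sphingomyelin and sphingosine phosphate metabolism. The list was made by name, for the pathway, with earlier results of these data already known. These genes were measured in MC3T3-E1, an osteoblast precursor line from the skull of mice, on 4 one-colour Agilent arrays with 1 array per group. The groups were cells given Miglustat at 50 µM, D-PDMP at 10 µM or D-PPMP at 1.0 µM, and Control cells, for which the labels name no treatment. Treated cells had 4 days of inhibitor before they were replated and cultured for a further 24 h; the labels do not say whether the inhibitors were kept in the new dishes or what vehicle was used. By its title, the study looked for molecules under the control of glucosylceramide synthase. Of the 38 genes, 37 had a probe among the 22911 genes with a probe on the array, and 32 were well above background on all 4 arrays, by the call of the scanner software. Cers1 had no probe matched to it and was not analysed here. Acer1, Acer2, Sgpp2, S1pr4 and S1pr5 were well above background on none, so 5 of the 37 have no fold.

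Ceramide is the branch point of sphingolipid metabolism. Serine palmitoyltransferase starts its synthesis in the endoplasmic reticulum, ceramide synthases attach a fatty acid, and a desaturase completes it. Ceramide then becomes sphingomyelin, glucosylceramide or ceramide 1-phosphate, or is cleaved by ceramidases to sphingosine, which sphingosine kinases turn into sphingosine 1-phosphate, a signal for osteoblasts and osteoclast precursors through G protein-coupled receptors. Glucosylceramide synthase, encoded by Ugcg, uses ceramide as its substrate. Miglustat is an iminosugar, whereas D-PDMP and D-PPMP are ceramide analogues with the same phenyl-morpholino core and a shorter (D-PDMP) or longer (D-PPMP) fatty acyl chain. Their doses differed, so values under the inhibitors are given side by side, with no test between compounds.

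Each array had 56605 probes outside the controls. The share of them well above background was 60.2% with Miglustat, 60.8% with D-PDMP, 62.4% with D-PPMP and 57.5% in Control. All 4 arrays were on 1 slide, each group in a position of its own, and an effect of position cannot be told apart from one of treatment. With 1 array per group there was neither a replicate error nor a test, and precision is limited by the number of arrays. Levels below are log2 signals minus the 75th percentile of the array, and differences are log2 ratios of an inhibitor array over the Control array. The 3 comparisons share the Control array, whose own error enters every ratio. The scanner software gives an error for each signal. The resulting error of a ratio was 0.204 at the median of the 32 genes, and it does not cover differences between cultures. It was nearly the same for all bright genes, so for them it acts as a fixed cut. The spread of repeated bright spots, both arrays combined, was smaller, at 0.049 with Miglustat, 0.048 with D-PDMP and 0.047 under D-PPMP. Of 10 listed osteoblast markers, 7 were well above background on all arrays (Runx2, Sp7, Col1a1, Col1a2, Spp1, Sparc and Postn), whereas Alpl and Ibsp were not on any. The remaining one, Bglap, was well above background with D-PDMP and D-PPMP but not with Miglustat or in Control. Listed markers of other cell types were mixed. Well above background on all arrays were 4 of 7 for blood cells (Csf1r, Cd68, Itgam and Cd3e) and 2 of 5 for fat cells (Fabp4 and Lep). The same held for 1 of 5 each for endothelium (Pecam1) and muscle (Acta1), and 2 of 5 each for cartilage (Col2a1 and Sox9) and epithelium (Cdh1 and Krt5). On no array were Ptprc and Adgre1 of blood cells, Plin1 and Cidec of fat cells, or Cdh5, Kdr, Tek and Emcn of endothelium well above background. Nor were Myog, Myod1 and Ckm of muscle, Acan of cartilage and Epcam of epithelium.

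Differences from Control were small for the mRNAs of this pathway under all 3 inhibitors, as they were for most genes on the arrays. None of the 32 genes was 2-fold or more from Control under any inhibitor. Among all genes well above background on the inhibitor array and the Control array, 0.388% were 2-fold apart for Miglustat, 0.325% for D-PDMP and 0.507% for D-PPMP. With shares this low, a count of 0 among 32 genes does not set the list apart. At the lower step of 1.3-fold, 0 genes were called with Miglustat, 1 with D-PDMP and 1 under D-PPMP, both times S1pr3. Of all genes, 7.55% were past it with Miglustat, 7.16% with D-PDMP and 9.49% under D-PPMP. Beyond the scanner error of their own ratio lay 5 genes with Miglustat, 7 with D-PDMP and 6 under D-PPMP. These are 15.6%, 21.9% and 18.8% of the 32, near the 19.5%, 18.3% and 22.6% of all genes. Of these 18 ratios, 9 stayed beyond the same error under all 7 alternative settings that give a ratio for each gene. The other 9 did not, 8 of them with normexp background correction. That setting adds a fixed offset to every signal, which by itself pulls the ratios of dim genes towards Control. A loss under normexp is therefore no independent check of a dim gene. Nor could each of the 7 settings change every ratio. The probes of the list have 1 spot each, so keeping outlier spots leaves them nearly as they were. The authors' deposited values nearly repeat those used here, and the mean of probes leaves a gene with 1 probe unchanged. Staying beyond the error under these is no separate check. The median ratio of the 32 genes was 0.02 with Miglustat, -0.04 with D-PDMP and 0.00 under D-PPMP, beside -0.02, 0.00 and -0.01 over all genes. Above Control were 18 genes with Miglustat, 14 with D-PDMP and 16 under D-PPMP. Over all genes compared, 6314 of 14174 were above Control with Miglustat, 7026 of 14157 with D-PDMP and 6890 of 14203 under D-PPMP. The median gene of the list spanned 0.21 between its highest and its lowest array, and the median of all 14006 genes well above background on all arrays spanned 0.20. RNA came from whole dishes, so a lower level in each cell and fewer cells with the mRNA cannot be told apart.

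**Figure D1:**
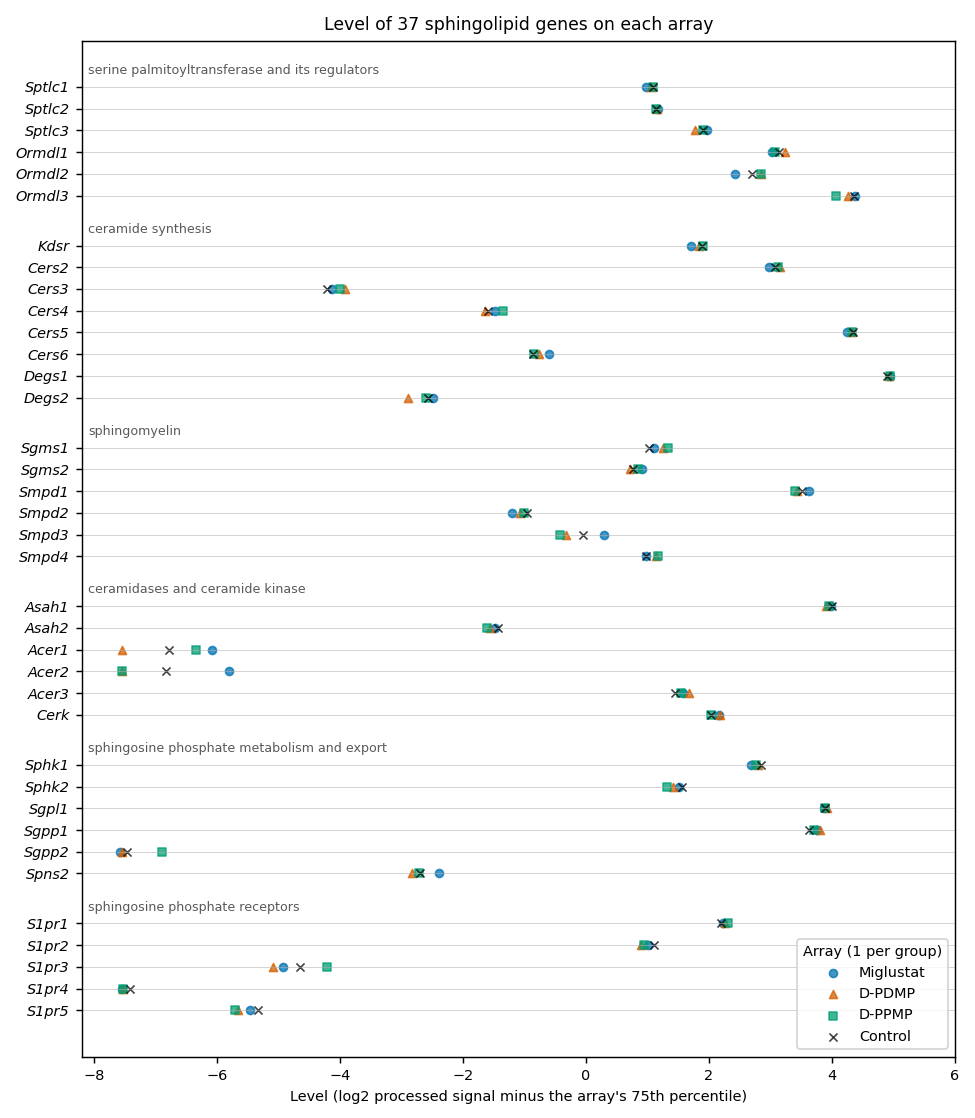
Level of the 37 genes with a probe on each array, as log2 processed signal minus the 75th percentile of the array, by step of the pathway (circles Miglustat, triangles D-PDMP, squares D-PPMP, crosses Control, 1 array each). For most genes the 4 symbols lie on top of each other; Acer1, Acer2, Sgpp2, S1pr4 and S1pr5, all at -5.34 or lower, were not well above background. Levels of different genes come from different probes and are not comparable.

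**Figure D2:**
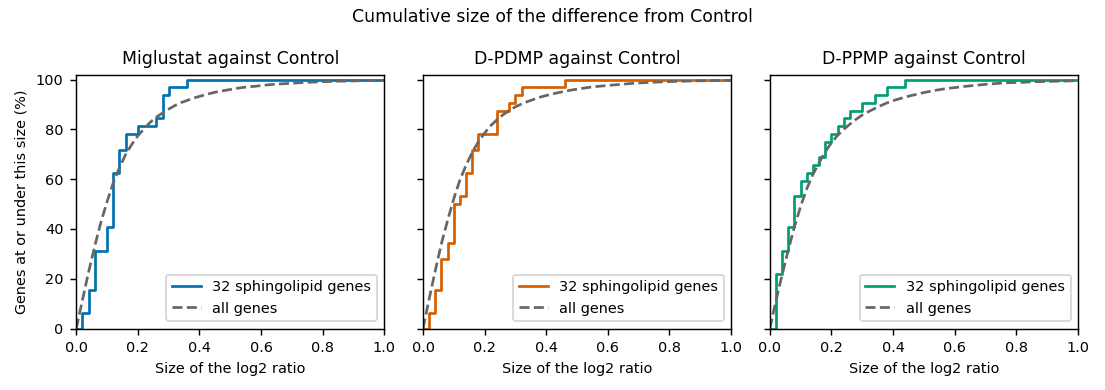
Cumulative share of genes (vertical axis, %) whose log2 ratio over Control is at or under the size on the horizontal axis, for the 32 genes well above background on all arrays (solid) and for all genes well above background on both arrays (dashed), one panel per inhibitor. The curves run close together, and that of the 32 genes ends at sizes of 0.34 with Miglustat, 0.45 with D-PDMP and 0.43 under D-PPMP.

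Sptlc1, Sptlc2 and Sptlc3 encode subunits of serine palmitoyltransferase, the rate-limiting enzyme of the pathway. Sptlc2 had levels of 1.17 with Miglustat, 1.15 with D-PDMP, 1.13 with D-PPMP and 1.14 in Control, a range of 0.04. Sptlc1 was at 0.98 with Miglustat, 1.05 with D-PDMP, 1.09 with D-PPMP and 1.09 in Control. The largest difference of Sptlc3 from Control was -0.13, with D-PDMP. All of these lie within the error of the ratio, 0.204.

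The Ormdl proteins bind serine palmitoyltransferase and hold it back when ceramide is plentiful, and their 3 genes had different patterns over the arrays. Ormdl2 had levels of 2.43 with Miglustat, 2.85 with D-PDMP, 2.84 with D-PPMP and 2.70 in Control. It was thus lowest with Miglustat, at a ratio of -0.27, and at 0.14 with both ceramide analogues. Ormdl3, also known as a human asthma susceptibility locus, had levels of 4.38 with Miglustat, 4.27 with D-PDMP, 4.07 with D-PPMP and 4.36 in Control. The D-PPMP array was the lowest, at a ratio of -0.29, and a second, dimmer probe of Ormdl3 was lowest on the same array, at -0.41. Ormdl1 was within the error, at -0.11, 0.10 and -0.07 with Miglustat, D-PDMP and D-PPMP. The windows around the starts of Ormdl2 and Ormdl3 are shown because these homologous genes differed most from each other with D-PPMP. They are RefSeq sequences of build GRCm38.p6 (300 bases each, most of them before the start), at chr10:128821580-128821879 on the minus strand for Ormdl2 and chr11:98587196-98587495 on the minus strand for Ormdl3. Capitals mark matches, on either strand, to the GC box GGGCGG, the CCAAT box CCAAT, the TATA box TATAAA, the E-box CACGTG, the AP-1 site TGANTCA and the sterol element given below.
Ormdl2: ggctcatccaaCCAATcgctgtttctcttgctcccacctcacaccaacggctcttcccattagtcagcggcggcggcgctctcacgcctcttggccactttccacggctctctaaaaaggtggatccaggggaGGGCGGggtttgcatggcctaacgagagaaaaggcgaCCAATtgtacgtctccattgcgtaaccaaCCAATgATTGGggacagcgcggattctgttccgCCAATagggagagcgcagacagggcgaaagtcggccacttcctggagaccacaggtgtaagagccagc
Ormdl3: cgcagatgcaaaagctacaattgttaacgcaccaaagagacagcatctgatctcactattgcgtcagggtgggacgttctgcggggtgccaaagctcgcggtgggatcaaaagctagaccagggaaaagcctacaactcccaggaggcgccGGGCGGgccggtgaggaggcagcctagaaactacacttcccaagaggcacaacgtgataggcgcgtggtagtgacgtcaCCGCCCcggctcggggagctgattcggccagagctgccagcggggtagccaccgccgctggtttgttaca
The Ormdl2 window held 5 CCAAT boxes and 1 GC box, and the Ormdl3 window 2 GC boxes and no CCAAT box, with no overlap between matches. A match is a description of the letters and not a bound site. The E-box and the AP-1 site read the same on both strands.

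Over the whole list, 35 of the 38 genes had such a window, 50 windows in all since some have several starts. A GC box was found in 56% of them, against 35.7% of all 32851 windows, and a CCAAT box in 32% against 37.4%. The TATA box was found in 4% against 13.6%, the E-box in 16% against 7.15% and the AP-1 site in 14% against 7.81%. The sterol element TCACNCCAC was in 0% of the windows of these genes and 1.24% of all. Median GC content was 61.5% in the windows of these genes and 52.7% in all windows. These shares carry no test, and windows of one gene can overlap.

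Ceramide synthesis proper is made up of Kdsr, which reduces ketosphinganine, the ceramide synthases Cers1 to Cers6, which differ in the fatty acid they attach, and the desaturases Degs1 and Degs2. Of the 8 genes measured, 5 were above Control with Miglustat, 4 with D-PDMP and 6 under D-PPMP, and the medians were 0.07, 0.01 and 0.04. The counts above Control over all genes are those given before. Degs1, the main dihydroceramide desaturase, was nearly constant at 4.94 with Miglustat, 4.93 with D-PDMP, 4.95 with D-PPMP and 4.89 in Control. Cers5 and Cers2, which make ceramides of palmitate and of very long fatty acids, were both at -0.10 with Miglustat and closer to Control with the ceramide analogues. Kdsr had its largest difference with Miglustat, at -0.18. None of these 4 exceeded its error.

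Cers6, Cers4, Degs2 and Cers3 were each outside the error under 1 inhibitor, and each of these ratios came within the error under at least 1 alternative setting. Cers6, another synthase of palmitate-type ceramides, had levels of -0.60 with Miglustat, -0.77 with D-PDMP, -0.85 with D-PPMP and -0.87 in Control. The Miglustat array was the highest, at a ratio of 0.27, which was 0.19 with normexp against an error of 0.205. Cers4 was at -1.49 with Miglustat, -1.65 with D-PDMP, -1.36 with D-PPMP and -1.60 in Control, and its D-PPMP ratio was 0.24. That ratio was 0.06 with normexp and 0.17 under quantile normalization and cyclic loess, against an error of 0.206. Degs2, which also hydroxylates dihydroceramide to phytoceramide, had levels of -2.49 with Miglustat, -2.89 with D-PDMP, -2.60 with D-PPMP and -2.58 in Control. It was lowest with D-PDMP, at -0.30, against an error of 0.217. That ratio was -0.36 under quantile normalization and -0.37 under cyclic loess. With normexp it was -0.19, and as the mean of probes -0.18. The offset of normexp is larger than the Degs2 signals, and the second Degs2 probe was well above background on no array. Neither of these lower values is therefore an independent check. Cers3, the synthase of the ultra-long ceramides of skin, was dim, with levels of -4.13 with Miglustat, -3.92 with D-PDMP, -4.0 with D-PPMP and -4.22 in Control. Its ratios were 0.09 with Miglustat, 0.30 with D-PDMP and 0.22 under D-PPMP, of which the D-PDMP value was just past its error of 0.289. Their signs depended on the setting. The Miglustat ratio was -0.02 with normexp, -0.01 under quantile normalization and -0.02 under cyclic loess. The D-PDMP ratio was -0.07 with normexp, 0.19 under quantile normalization and 0.17 under cyclic loess. The D-PPMP ratio was 0.01 with normexp, -0.01 after quantile normalization and -0.04 after cyclic loess. The offset of normexp is larger than the Cers3 signals, so normexp cannot check these signs. Under quantile normalization and cyclic loess, the Miglustat and D-PPMP ratios still changed sign. The D-PDMP ratio kept its sign there but came within its error. No direction is therefore given for Cers3.

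Sphingomyelin is made from ceramide by Sgms1 in the Golgi and Sgms2 at the plasma membrane, and is broken down by the acid sphingomyelinase Smpd1 and the neutral ones Smpd2, Smpd3 and Smpd4. The medians of these 6 genes were 0.11 with Miglustat, -0.07 with D-PDMP and 0.01 under D-PPMP. Sgms1 had levels of 1.11 with Miglustat, 1.25 with D-PDMP, 1.34 with D-PPMP and 1.02 in Control. Every inhibitor array was above Control, and the ratios with D-PDMP and D-PPMP, 0.23 and 0.32, exceeded the error while that with Miglustat, 0.09, did not. Sgms2 showed no such order, at 0.14, -0.05 and 0.07 with Miglustat, D-PDMP and D-PPMP.

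Smpd3 had the widest range over the arrays after S1pr3, 0.71. This membrane-bound neutral sphingomyelinase is needed for skeletal mineralization in mice. Its levels were 0.29 with Miglustat, -0.32 with D-PDMP, -0.42 with D-PPMP and -0.05 in Control, so Control lay between Miglustat and the ceramide analogues. It was 1.27-fold higher with Miglustat (0.34), 1.20-fold lower with D-PDMP (-0.26) and 1.29-fold lower with D-PPMP (-0.37). Its second probe had the same signs, at 0.49 with Miglustat, -0.11 with D-PDMP and -0.09 under D-PPMP, but only the first of these exceeded the error. The D-PPMP ratio passed 1.3-fold under quantile normalization, at -0.40, and was -0.23 as the mean of both probes, where that of D-PDMP came within the error at -0.19. Smpd2 was at -1.21 with Miglustat, -1.07 with D-PDMP, -1.01 with D-PPMP and -0.96 in Control, and its Miglustat ratio of -0.25 exceeded the error, but was -0.19 with normexp. Smpd1, the lysosomal enzyme deficient in human Niemann-Pick disease, was at 0.12, -0.09 and -0.11 with Miglustat, D-PDMP and D-PPMP, and Smpd4 at 0.00, 0.16 and 0.19.

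**Figure D3:**
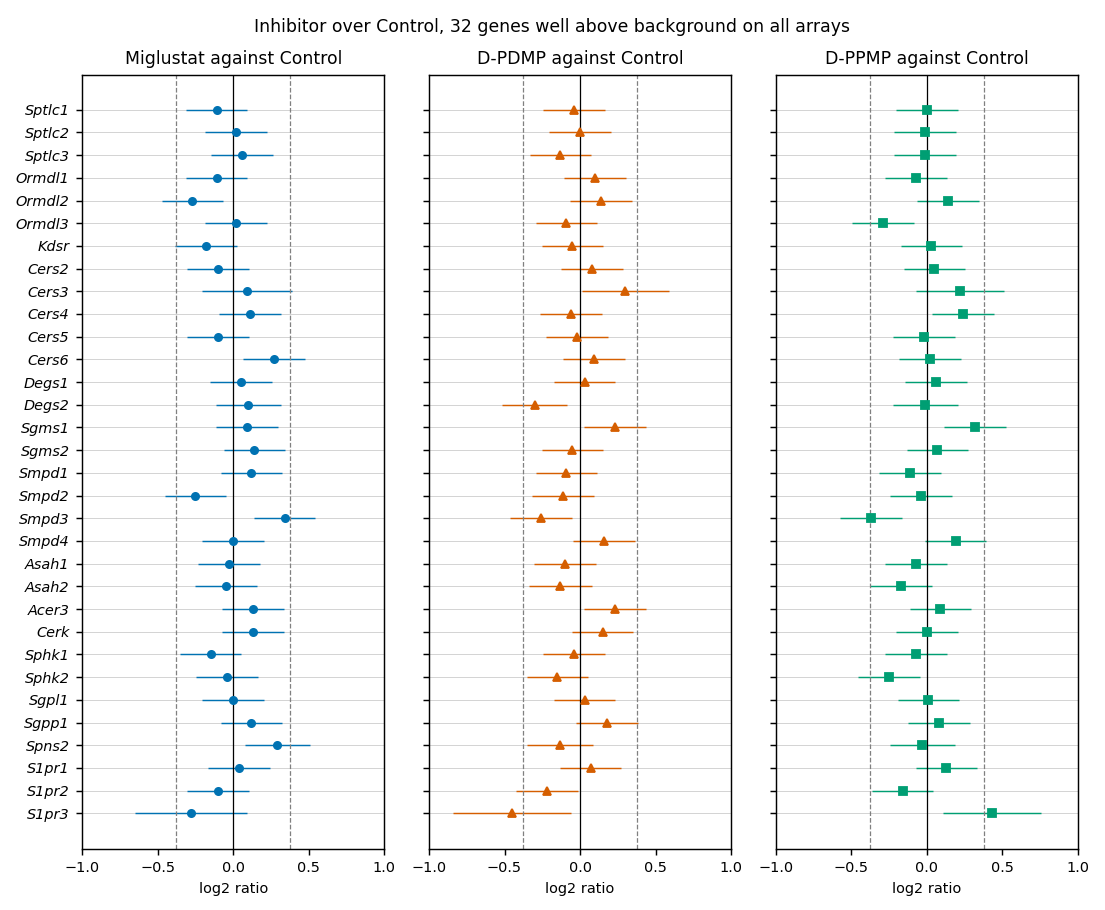
Log2 ratio of each inhibitor array over the Control array (horizontal axis) for the 32 genes well above background on all arrays; bars are the error that the scanner software gives for the ratio, and dashed lines mark 1.3-fold. S1pr3 is past the lines with D-PDMP (-0.45) and, in the opposite direction, with D-PPMP (0.43), and Smpd3 lies on the right with Miglustat and on the left with the other inhibitors.

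Ceramidases cleave ceramide to sphingosine. The acid ceramidase Asah1 of lysosomes was close to Control, at -0.03 with Miglustat, -0.10 with D-PDMP and -0.07 under D-PPMP. Asah2, the neutral ceramidase, was at -0.05 with Miglustat, -0.13 with D-PDMP and -0.17 under D-PPMP on its brightest probe. Acer3, an alkaline ceramidase, had levels of 1.58 with Miglustat, 1.68 with D-PDMP, 1.54 with D-PPMP and 1.45 in Control. It was highest with D-PDMP, where the ratio of 0.23 exceeded the error. The alkaline ceramidases Acer1 and Acer2 were not well above background. Cerk, which phosphorylates ceramide, was at 0.13 with Miglustat, 0.15 with D-PDMP and 0.00 under D-PPMP, all within the error.

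Sphingosine 1-phosphate is made by 2 kinases and removed by a lyase and 2 phosphatases. Sphk1, the mainly cytosolic sphingosine kinase, had levels of 2.69 with Miglustat, 2.80 with D-PDMP, 2.77 with D-PPMP and 2.84 in Control, and no ratio beyond the error. Sphk2, the other kinase, was at 1.52 with Miglustat, 1.41 with D-PDMP, 1.31 with D-PPMP and 1.56 in Control. Only its D-PPMP ratio, -0.25, exceeded the error. Sgpl1, the lyase that ends the pathway by cleaving sphingosine 1-phosphate, varied least beside Sptlc2, with a range of 0.04 over the arrays. The phosphatase Sgpp1 was at 0.12, 0.18 and 0.08 with Miglustat, D-PDMP and D-PPMP, and Sgpp2 was not well above background. Spns2, the exporter of sphingosine 1-phosphate, had levels of -2.40 with Miglustat, -2.83 with D-PDMP, -2.72 with D-PPMP and -2.70 in Control. Its Miglustat array stood above the others, at a ratio of 0.29, which was 0.10 with normexp background correction. The offset of normexp is larger than the Spns2 signals and shrinks their ratios by itself, so the lower value is no independent check.

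Of the receptors, S1pr1, S1pr2 and S1pr3 were well above background on all arrays, and S1pr4 and S1pr5 on none. S1pr1, which guides osteoclast precursors in mice, was at 0.04 with Miglustat, 0.07 with D-PDMP and 0.13 under D-PPMP. S1pr2, another receptor of sphingosine 1-phosphate, had levels of 1.01 with Miglustat, 0.89 with D-PDMP, 0.95 with D-PPMP and 1.11 in Control. All 3 inhibitor arrays were below Control for S1pr2, and the ratio with D-PDMP, -0.22, exceeded the error. S1pr3, which couples to several G proteins, had levels of -4.93 with Miglustat, -5.10 with D-PDMP, -4.22 with D-PPMP and -4.65 in Control. The D-PDMP array was the lowest and the D-PPMP array the highest, at ratios of -0.45 and 0.43, or 1.37-fold lower and 1.35-fold higher. The signals behind these levels were 6.27 with Miglustat, 5.51 with D-PDMP, 10.1 with D-PPMP and 7.26 in Control, where the 75th percentile of the arrays lay between 183 and 191. The error of the S1pr3 ratio was 0.391 with D-PDMP and 0.324 under D-PPMP. Among all genes with a mean level below -4, 32.5% were 1.3-fold or more from Control with Miglustat, 33.3% with D-PDMP and 36.9% under D-PPMP. Of brighter genes the shares were 5.45%, 4.99% and 7.13%. The D-PPMP ratio was 0.16 under quantile normalization, 0.21 under cyclic loess and 0.01 with normexp background correction. The D-PDMP ratio was -0.64 under quantile normalization, -0.56 under cyclic loess and -0.07 with normexp. The offset of normexp is larger than the S1pr3 signal on every array. It brings these ratios towards Control whatever the mRNA did, so normexp cannot check them. The window around the S1pr3 start is shown because this is the only gene of the list past 1.3-fold on its brightest probe. It lies at chr13:51408368-51408667 on the plus strand of GRCm38.p6, in RefSeq, with capitals as above.
S1pr3: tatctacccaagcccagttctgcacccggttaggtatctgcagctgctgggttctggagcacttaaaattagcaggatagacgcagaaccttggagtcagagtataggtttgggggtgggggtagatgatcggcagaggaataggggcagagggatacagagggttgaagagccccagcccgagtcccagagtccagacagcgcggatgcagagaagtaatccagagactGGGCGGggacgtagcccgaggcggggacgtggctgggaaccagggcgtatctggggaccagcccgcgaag
The window held 1 GC box and no match to the other motifs.

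For 10 genes, at least 2 probes were well above background on all arrays, which gives a check of the ratios by other parts of the same mRNA. All probes of a gene lay within 0.2 of the brightest one for 8 genes with Miglustat, 9 with D-PDMP and 8 under D-PPMP. The widest disagreement was that of Asah2 with Miglustat, where the brightest probe was at -0.05 and the dimmest of 3 at 0.54. Smpd4 was at 0.00 with Miglustat on its brightest probe and at 0.43 on a dim probe to another transcript record. That dim probe was also above Control with D-PDMP, at 0.33, and with D-PPMP, at 0.35. Signs also differed between probes. This was so for Asah2 with each inhibitor, from -0.28 to 0.10 with D-PDMP and from -0.17 to 0.23 under D-PPMP. It was also so for Ormdl3 with Miglustat (0.02 and -0.15) and for Cers2 under D-PPMP (0.05 and -0.10). Cers2 and Kdsr with D-PDMP, and Asah1 and Sgpl1 under D-PPMP, changed sign at sizes of 0.09 or less. Every probe of the list had 1 spot. Of the 37 genes with a probe, 12 had more than 1 probe, and S1pr3 was not among them.

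**Figure D4:**
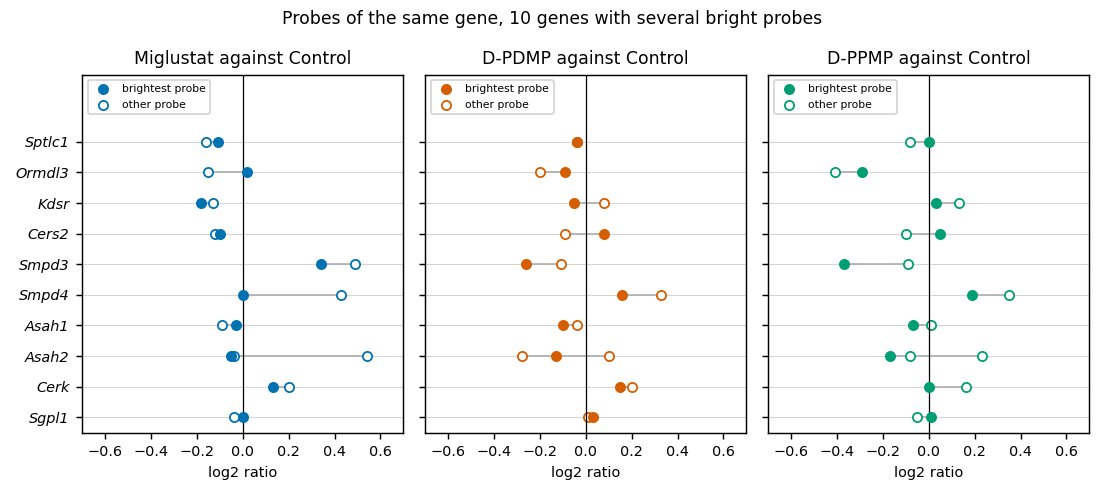
Log2 ratio over Control (horizontal axis) on the brightest probe (filled) and on other probes (open) of the 10 genes with several probes well above background on all arrays, one panel per inhibitor. Most pairs lie close together, and the widest lines are those of Asah2 in each panel and of Smpd4 with Miglustat.

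Of a further list of 27 sphingolipid genes, 26 had a probe and 21 were well above background on all arrays. None was 2-fold from Control, and at 1.3-fold 1 was called with Miglustat, 0 with D-PDMP and 1 under D-PPMP. Of all genes the shares past 1.3-fold were the 7.55%, 7.16% and 9.49% given above. The medians were -0.06 with Miglustat, 0.01 with D-PDMP and 0.00 under D-PPMP. Plpp1, a lipid phosphate phosphatase that can dephosphorylate sphingosine 1-phosphate outside the cell, had levels of 5.04 with Miglustat, 4.53 with D-PDMP, 4.63 with D-PPMP and 4.59 in Control. The Miglustat array stood above the others, at a ratio of 0.45 or 1.37-fold, its second probe was at 0.21, and the mean of probes, 0.33, was under 1.3-fold. Smpdl3a, a phosphodiesterase related to acid sphingomyelinase, had levels of -0.22 with Miglustat, -0.42 with D-PDMP, -0.58 with D-PPMP and -0.18 in Control. It was lowest with D-PPMP, at -0.40, which was -0.32 and so under 1.3-fold with normexp. Ugcg, whose product is the enzyme the inhibitors act on, was at 0.09 with Miglustat, 0.08 with D-PDMP and 0.00 under D-PPMP. Cert1, which carries ceramide to the Golgi for sphingomyelin synthesis, was at -0.12 with Miglustat, 0.09 with D-PDMP and 0.21 under D-PPMP. Smpd5, a mitochondria-associated sphingomyelinase, was well above background only with Miglustat, but its signals of 5.86 with Miglustat and 4.43 in Control, a ratio of 0.34, lay within the error of 0.507. Enzyme activity and lipids were not measured.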

How the data were processed

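Total RNA of 4 groups of MC3T3-E1 cells, 1 array each, was extracted with an RNeasy Plus kit and labelled with Cy3, per the labels' protocols. Spot intensities came from Agilent Feature Extraction 12.1.1.1, per the file headers; in the deposited processed signal, background was removed array by array, with no scaling across arrays. The authors' deposited log2 table was set against it. Its values on 1-spot probes differed at the median by 0.00981 or less from log2 of the processed signal (floor 1) minus the array's 75th percentile, in the same direction and with no centring on genes. Its column medians were -4 with Miglustat, -4 with D-PDMP, -3.89 with D-PPMP and -4.1 in Control. How it was made is not stated in these sources.

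Control spots and outlier spots (67 with Miglustat, 66 with D-PDMP, 85 with D-PPMP and 70 in Control) were left out, log2 signals were averaged per probe and the 75th percentile of each array was subtracted. Probes were named by accession through a RefSeq table of GRCm38.p6; the array design names another build, so no coordinates of probes are given. Of 56605 probes, 32994 (58.3%) matched 22911 genes, and a gene takes its brightest probe. A gene was compared when well above background on both arrays, and called at 2-fold or 1.3-fold (0.38 on the log2 scale). No test was possible with 1 array per group. The error of a ratio combines the signal errors of the scanner software. The SD of log2 signals over the 10 spots of repeated bright probes had a median between 0.0295 and 0.0371. Ratios and 1.3-fold calls were run on data simulated from the Control array. The simulation had the same noise at every level, smaller than the spread of repeated dim spots, and no background filter. It is thus no check of calls for dim genes or of those by the scanner error.

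The members and lists were chosen with earlier results of these data known; the split at a mean level of -4 was added after the values were seen. Every member well above background is named; other genes are named when 1.3-fold from Control, besides Ugcg, Cert1 and Smpd5, of which the last 2 were chosen after their values were seen. The alternatives were normexp (offset 50), quantile and cyclic loess normalization in limma 3.58.1, the percentile over bright probes, the authors' table, other filters, the mean of probes, and outlier spots kept.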

Additional observations from a re-analysis of the deposited data

How the results depend on the processing

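Counts at 2-fold stayed at 0 for every inhibitor and setting but 1: with no filter on dim probes, 1 gene below background (Acer2) was counted with Miglustat. At 1.3-fold the count with Miglustat, 0 in the values reported, was 1 under quantile normalization (S1pr3), 1 with the mean over the probes of a gene (Smpd3) and 2 with no filter (Acer1 and Acer2). The count with D-PDMP, 1 as reported, was 0 with normexp and 3 with no filter. That with D-PPMP, also 1, was 0 with normexp, 2 in the authors' table (Smpd3 and S1pr3) and 4 with no filter; under quantile normalization and cyclic loess it was 1, but the gene was Smpd3 in place of S1pr3. The cause was not tested, except that the genes added with no filter are ones below background. Over all settings the median of the list lay between -0.02 and 0.04 with Miglustat, between -0.05 and -0.03 with D-PDMP and between -0.01 and 0.01 under D-PPMP. Normexp was run on the median spot signal, since the scanner files used here hold no mean signal. That choice was made after seeing the files. The offset of normexp is larger than every S1pr3 signal, so the loss of S1pr3 from its counts at 1.3-fold is no independent check. A single ratio was said to move when it changed by more than the spread of repeated bright spots on both arrays combined. That spread was 0.049 with Miglustat, 0.048 with D-PDMP and 0.047 under D-PPMP. Of 105 single ratios, 24 moved with normexp, 15 each under quantile normalization and cyclic loess, and 21 with the mean over probes. With the other settings run, 0 moved. Those settings nearly repeat the values used or shift all ratios of an inhibitor alike, so the 0 is no check of single ratios. Of the genes of the list that were well above background on all arrays, S1pr3 and Cers3 had the lowest levels. No paired analysis was possible because each group has 1 array.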
